A study of Mus musculus with 2 samples.

Results

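The serum amyloid A genes Saa1, Saa2, Saa3 and Saa4 and the acute phase genes Lcn2, Hp, Orm1, Orm2, Ptx3 and Lbp were followed. The RNA came from cultures grown from mammary basal cells, alone or together with M2-like macrophages. These 10 genes, of 49492 in the table, were selected on the M2 and ctrl values of the same 2 libraries, so their differences are a description and were not tested. Basal cells were sorted from the mammary glands of adult female wild-type mice as lineage-negative cells with CD24 and high CD29, and were grown in a 3D matrix gel in DMEM/F12 medium with EGF and ITS for 11 to 14 days. The ctrl library came from cells grown without macrophages. The M2 library came from cells that shared the well with bone marrow-derived macrophages of C57/B6 mice, which had been polarised with Il-4 and Il-13. Per the study's methods, these macrophages sat above a porous membrane in an insert and were replaced at intervals, so the RNA is that of the colonies and organoids in the gel. No number of animals behind a library is given, and each group holds 1 library, so no difference has a replicate check.

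The acute phase response is the change in secreted proteins that follows infection, injury or inflammation, and the liver is its best known source. Cytokines of the interleukin 6, interleukin 1 and TNF families induce it, acting through the transcription factors STAT3, C/EBPβ, C/EBPδ and NF-κB. Epithelia make several of the same proteins locally, and lipocalin 2, serum amyloid A and haptoglobin are known in the mammary gland during involution and mastitis. The genes described here encode lipid-binding serum amyloids, proteins that capture iron carriers or haemoglobin, plasma carriers of small molecules, and soluble recognition molecules for microbial surfaces.

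The proximal promoters of the 3 serum amyloid genes with the largest fold differences are shown first, because they let the near-identical pair Saa1 and Saa2 be set beside the more distant Saa3. RefSeq promoter entries (GRCm38.p6) were matched for 7 of the 10 genes, namely Saa1, Saa2, Saa3, Saa4, Lcn2, Orm2 and Ptx3. Each printed stretch has 207 bases and runs 5′ to 3′ on the gene's strand, from 250 to 44 bases before the start site. It lies at chr7:46743024-46743230 on the minus strand for Saa1, at chr7:46751583-46751789 on the plus strand for Saa2, and at chr7:46715720-46715926 on the minus strand for Saa3. Capitals mark a match to the C/EBP letters TTNNGCAA on either strand and, in Saa1 further downstream, a match to the 10-letter NF-κB consensus.
Saa1: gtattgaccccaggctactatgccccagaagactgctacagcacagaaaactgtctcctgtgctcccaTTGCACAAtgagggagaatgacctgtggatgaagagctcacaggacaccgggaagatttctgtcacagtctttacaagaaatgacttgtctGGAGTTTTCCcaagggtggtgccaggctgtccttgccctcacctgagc
Saa2: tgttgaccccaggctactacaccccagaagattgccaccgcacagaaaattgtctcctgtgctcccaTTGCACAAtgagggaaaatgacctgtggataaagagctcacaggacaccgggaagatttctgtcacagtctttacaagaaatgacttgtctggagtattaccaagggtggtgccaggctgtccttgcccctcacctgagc
Saa3: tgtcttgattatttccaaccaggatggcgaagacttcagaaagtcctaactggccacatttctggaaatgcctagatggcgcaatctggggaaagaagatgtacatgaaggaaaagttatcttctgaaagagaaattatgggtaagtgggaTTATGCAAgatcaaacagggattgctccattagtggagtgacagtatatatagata
Over the 250 bases before the start, Saa1 and Saa2 had 94.8% of aligned positions in common, whereas Saa1 and Saa3 shared 48.9%. The C/EBP letters began 182 bases before the start in Saa1, 183 in Saa2 and 99 in Saa3. The stretch of Saa2 that aligns with the NF-κB match of Saa1 holds no match to that consensus.

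The C/EBP letters were the one motif that all 7 promoters held, and 10.8% of the 32851 RefSeq promoters of the same length held them. Both strands were searched, from 250 bases before to 50 bases after the start. The matches in the other 4 promoters are shown with 8 bases on each side, at chr7:46732640-46732663 on the minus strand for Saa4, chr2:32387940-32387963 on the minus strand for Lcn2, chr4:63362321-63362344 on the plus strand for Orm2 and chr3:66219822-66219845 on the plus strand for Ptx3. Capitals mark the C/EBP letters.
Saa4: aggaaggaTTGAGCAAgagggact
Lcn2: ccttcctgTTGCTCAAccttgcac
Orm2: agaacattTTGCGCAAgacatttc
Ptx3: gtttaacaTTGTGCAAcctcttca
These matches began 52 bases before the start in Saa4, 216 in Lcn2, 120 in Orm2 and 57 in Ptx3. The RefSeq start used for Lcn2 lies inside the span given for this gene with the counts, 2:32384633-32388252. The printed Lcn2 stretch is therefore within that span. Saa4 held another match, 245 bases before the start, and the match of Orm2 reads as the C/EBP letters on both strands. The match was also present in Saa4, which had almost no reads, and in Ptx3, which was not higher in M2. None of the 7 promoters held the NF-κB letters GGGNNTNTC (15.3% of all promoters), the STAT letters TTCNNNGAA (8.30%) or the type II acute phase element CTGGGAA (11.1%). The TATA box letters TATAAA occurred in Orm2 (13.6% of all promoters). The 10-letter NF-κB consensus, added after the letters had been seen, matched in Saa1, Lcn2 and Ptx3, where the match overlaps the start site, and in 11.2% of all promoters. The C/EBP and NF-κB matches overlapped in none of these promoters. A match describes letters only and shows neither binding nor a cause.

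Reads in genes numbered 26912610 in ctrl and 29413844 in M2, and 19233 genes had at least 10 reads over both libraries. A log2 fold difference is M2 over ctrl, on reads plus a pseudocount of 1 divided by library sizes after TMM scaling, which assumes that most genes do not differ. It comes with a 95% Clopper-Pearson interval that covers counting error only. The interval is that of the ratio without the pseudocount, so at low counts the printed difference is not at its centre. Levels within a gene are given as CPM (reads per 1000000 of the TMM-scaled library), and levels between genes as RPKM (CPM for each 1000 bases of gene length). Markers of the labelled cell type were present: all 9 basal epithelial markers examined were read, among them Krt5 with 56383 reads in ctrl and 83619 in M2 and Krt14 with 81991 and 68968, and the 9 genes held 219769 and 238739 reads together. All 12 luminal markers were read as well, with 115145 reads in ctrl and 97417 in M2. Flow cytometry in the study found mostly luminal cells in such cultures, with a larger basal share in M2 than in ctrl. Each value is therefore that of a mixed culture, and by that cytometry the mix differed between the groups.

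Of the 10 genes, 8 were at least 2-fold higher in the M2 library, none was 2-fold lower, Ptx3 lay between, and Saa4 had too few reads. Among all 19233 genes with enough reads, 9.53% were at least 2-fold higher and 7.82% at least 2-fold lower. The whole counting interval was past 2-fold for the same 8 genes and for 4.88% of all genes. The median log2 fold difference of the 9 genes with enough reads was 4.78, or 4.25 with Orm2 set at its lower bound, against a median of -0.0032 and quartiles of -0.32 and 0.35 over all genes. Because the genes were chosen by this contrast, these counts are a summary and support nothing further. Together the 10 genes took 18435 reads in ctrl and 111975 in M2, that is 0.0685% and 0.381% of the libraries, and the scaled ratio of these sums was 5.79-fold (95% interval 5.70 to 5.88).

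**Figure D1:**
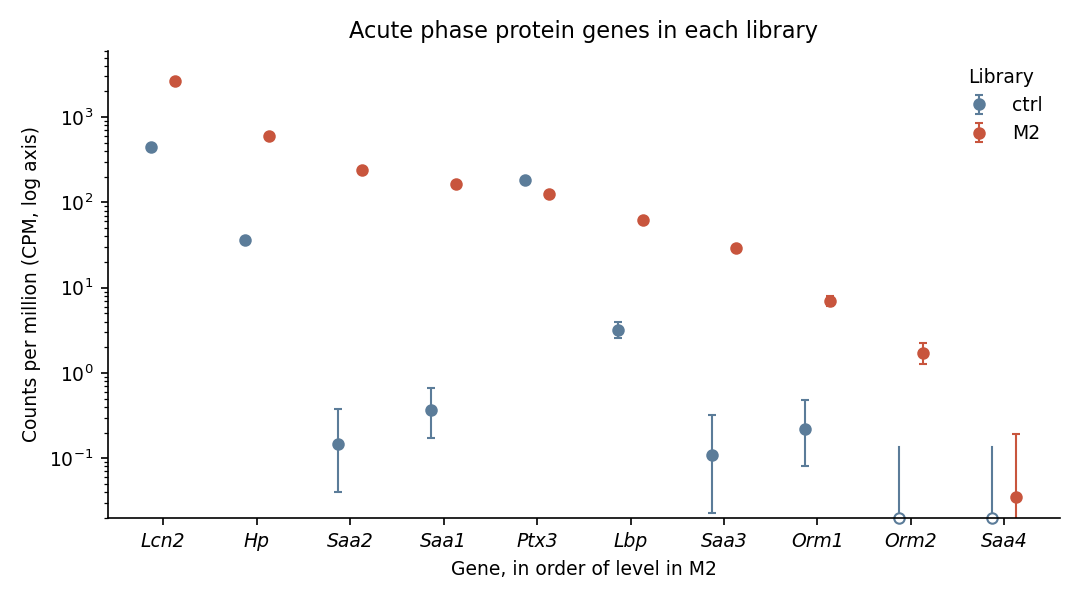
Level in CPM (log axis) of each acute phase gene in the ctrl and M2 libraries, ordered by the level in M2, with 95% counting intervals as bars and open circles on the axis for 0 reads. In ctrl, Saa1, Saa2, Saa3 and Orm1 sit below 1 CPM, whereas in M2 Saa1 and Saa2 reach 164 and 242, and Ptx3 is the one gene with the higher point in ctrl.

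The serum amyloid A proteins are small apolipoproteins that bind lipids and retinol and attract leukocytes. Saa1 and Saa2 are the forms best known from plasma in the acute phase, Saa3 is made mainly outside the liver, and Saa4 is known as the constitutive form. Saa2 (7:46751790-46754313, plus strand, GRCm38) had 4 reads in ctrl and 6977 in M2, or 0.146 and 242 CPM. Its log2 fold difference was 10.38 (9.34 to 12.58), the highest of all genes with enough reads. Saa1 (7:46740497-46742980, minus strand) had 10 reads in ctrl and 4722 in M2, or 0.364 and 164 CPM. The log2 fold difference of Saa1 was 8.68 (7.93 to 9.88), second among all genes. For both genes the ctrl level rested on 10 reads or fewer, so the size of the fold is known only within these wide limits.

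Saa3 (7:46711998-46715700, minus strand) had 3 reads in ctrl and 843 in M2, or 0.109 and 29.3 CPM. With so few ctrl reads, its difference is given as the ratio of reads, 268-fold with an interval from 91.3 to 1301. Saa4 (7:46727998-46732603, minus strand) had 0 reads in ctrl and 1 read in M2. A count of 0 allows up to 3 reads, or 0.109 CPM in ctrl, so Saa4 was at or below the limit of these libraries and no fold is given. The constitutive member was thus almost unread in the library where the 3 other serum amyloid genes held 4722, 6977 and 843 reads.

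The share of each gene among serum amyloid reads could be read closely in the M2 library and only roughly in ctrl. Of 12543 such reads in M2, Saa2 held 55.6% (95% Wilson interval 54.8 to 56.5), Saa1 37.6% (36.8 to 38.5) and Saa3 6.72% (6.30 to 7.17). In ctrl the 17 reads divided into 58.8% Saa1 (36.0 to 78.4), 23.5% Saa2 (9.56 to 47.3) and 17.6% Saa3 (6.19 to 41.0). Saa2 thus held more reads than Saa1 in M2, whereas the ctrl intervals overlap and give no order. Saa1 and Saa2 are near copies whose lead transcripts match at 93.9% of aligned positions (572 of 609), and 13.2% of the 50-base stretches of Saa1 occur unchanged in Saa2. No 100-base stretch is shared. How reads that fit both genes were counted is not given in the sources used here, so the split between them is uncertain, and reads left out or counted for both would change their sum too. Saa1 and Saa2 summed to 14 reads in ctrl and 11699 in M2, a ratio of 797-fold (474.5 to 1457), and all 4 serum amyloid genes to 17 and 12543 reads, or 703-fold (439 to 1208).

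**Figure D2:**
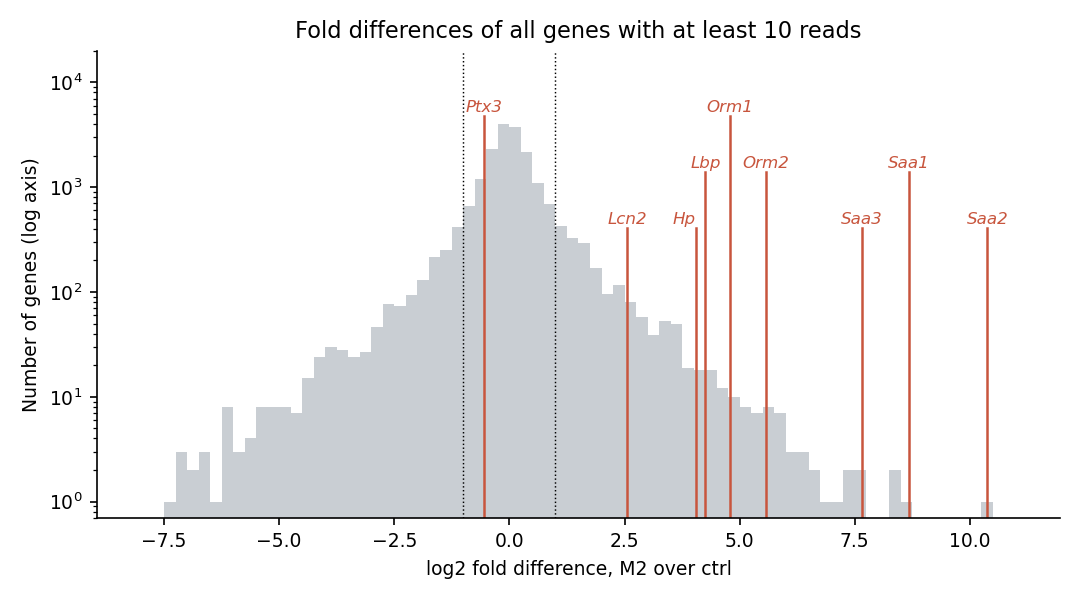
Number of genes (log axis) by log2 fold difference, M2 over ctrl, for the 19233 genes with at least 10 reads, with red lines at the acute phase genes and dotted lines at 2-fold. Saa2 at 10.38 and Saa1 at 8.68 lie at the far right of all genes, Ptx3 at -0.55 lies inside the 2-fold lines, and the positions of Saa3 and Orm2 depend on the pseudocount because they had 3 and 0 reads in ctrl.

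Lcn2, Hp and the orosomucoids are carriers that are secreted in the acute phase. Lcn2 encodes lipocalin 2, which binds bacterial siderophores and so withholds iron. It lies at 2:32384633-32388252 on the minus strand. Lcn2 had 12343 reads in ctrl and 76343 in M2, or 449 and 2649 CPM, and a log2 fold difference of 2.56 (2.53 to 2.59), which is 5.90-fold (5.78 to 6.01). It was the 275th gene by reads in ctrl and the 20th in M2, and it alone made up 67.0% of the reads of the 10 genes in ctrl and 68.2% in M2. Without Lcn2 the other 9 genes summed to 6092 and 35632 reads, a log2 ratio of 2.48. Of the genes higher in M2, Lcn2 had the smallest fold and by far the highest starting level.

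Hp encodes haptoglobin, which captures free haemoglobin, and it lies at 8:109575128-109579172 on the minus strand. Hp had 1007 reads in ctrl and 17485 in M2, or 36.7 and 607 CPM. Its log2 fold difference was 4.05 (3.96 to 4.14), or 16.6-fold, and its rank by reads went from 5365 in ctrl to 188 in M2. After Lcn2 it was the gene with the most reads of the 10 in M2, with 15.6% of their sum.

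Orm1 and Orm2 encode orosomucoids, also called alpha-1-acid glycoproteins, which are abundant plasma carriers of small lipophilic molecules. Orm1 (4:63344560-63348163, plus strand) had 6 reads in ctrl and 201 in M2, or 0.218 and 6.97 CPM. The log2 fold difference of Orm1 was 4.78 (3.85 to 6.46). Orm2 (4:63362449-63365878, plus strand) had 0 reads in ctrl and 49 in M2, which is at least 15.6-fold higher against the floor of 3 reads in the ctrl library. Both orosomucoid genes were low in either library, and together they held 6 reads in ctrl and 250 in M2. Their transcripts match at 91.0% of aligned positions and share 20.4% (Orm1) and 21.8% (Orm2) of their 50-base stretches, so the split between them is uncertain too. The related Orm3, which lies between them, had 0 reads in ctrl and 2 in M2.

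Lbp and Ptx3 encode soluble recognition molecules. Lbp, the lipopolysaccharide-binding protein, hands bacterial lipopolysaccharide to CD14, and its gene lies at 2:158306493-158332852 on the plus strand. Lbp had 88 reads in ctrl and 1781 in M2, or 3.20 and 61.8 CPM, and a log2 fold difference of 4.25 (3.96 to 4.60), which is 19.3-fold (15.6 to 24.2). Ptx3 encodes the long pentraxin 3, which binds complement C1q and microbial surfaces and stabilises hyaluronan matrix, and its gene lies at 3:66219910-66225805 on the plus strand. Ptx3 had 4974 reads in ctrl and 3573 in M2, or 181 and 124 CPM. Its log2 fold difference was -0.55 (-0.61 to -0.48), so the level in ctrl was 1.46-fold (1.40 to 1.53) that in M2. Ptx3 was the one gene of the 10 with the lower level in M2, and its share of their reads was 27.0% in ctrl and 3.19% in M2.

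The order of the 10 genes per length was not the same in the libraries. In ctrl, Lcn2 led with 171 RPKM, followed by Ptx3 with 67.5, Hp with 22.8 and Lbp with 0.663. Orm1 (0.282), Saa1 (0.147), Saa2 (0.0578) and Saa3 (0.0419) came next, and Orm2 and Saa4 were at 0. The counting intervals of neighbours from Lbp down to Saa3 overlapped, so the order of neighbours in ctrl is not resolved there, whereas the interval of Lbp lay above those of Saa1, Saa2 and Saa3. In M2, Lcn2 led with 1010 RPKM, before Hp with 378, Saa2 with 96.1, Saa1 with 66.1 and Ptx3 with 46.2. Lbp (12.8), Saa3 (11.2), Orm1 (9.0), Orm2 (2.19) and Saa4 (0.0166) followed. Ptx3 thus came before Hp in ctrl and after Hp, Saa2 and Saa1 in M2. None of the counting intervals of neighbours in this M2 order overlapped. The gene lengths in the table join the exons of all transcripts and reach 2478 bases for Saa1, against 609 for its coding transcript. With the length of each gene's longest coding transcript the order in M2 was the same, with Saa2 at 371 and Saa1 at 269 RPKM. In ctrl, Saa1 (0.598) then came before Orm1 (0.282). For Saa3 this length was 2200 bases, against 555 for its lead transcript, so its place after Lbp in M2 depends on this choice.

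The genes next to the 10 on the chromosome were examined within 200 kb, since the serum amyloid and orosomucoid genes lie in clusters. The 4 serum amyloid genes span 42.3 kb of chromosome 7. Saa3, Saa4 and Saa1 lie on the minus strand, with gaps of 12.3 kb between Saa3 and Saa4 and 7.89 kb between Saa4 and Saa1, and Saa2 lies 8.81 kb further on the plus strand, so that Saa1 and Saa2 point away from each other. Saa4, with its 1 read, therefore sits between Saa3 and Saa1, which had 843 and 4722 reads in M2. The pseudogene Saa-ps within the cluster had 0 reads in both libraries.

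Outside the serum amyloid cluster, Saal1 at 1.32 kb had 374 reads in ctrl and 446 in M2 (log2 fold difference 0.18), and Hps5 at 6.15 kb had 1034 and 918 (-0.24). Of the 13 genes with enough reads around this cluster, 2 were at least 2-fold higher, Tph1 with 5 and 35 reads (2.52) and the lactate dehydrogenase gene Ldha with 10623 and 23494 (1.08). None was 2-fold lower, and their median was -0.22. Over all genes, 9.53% were higher and 7.82% lower. Around Orm1 and Orm2, which span 21.3 kb of chromosome 4, 5 genes had enough reads, none was 2-fold higher, and the collagen gene Col27a1 with 199 and 40 reads (-2.36) was lower. No gene with enough reads within 200 kb was at least 2-fold higher around Lcn2 (16 genes), Hp (8 genes), Lbp (12 genes) or Ptx3 (1 gene). Near Lbp, Arhgap40 with 125 and 43 reads (-1.59) was at least 2-fold lower, and no gene was around Lcn2, Hp or Ptx3.

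**Figure D3:**
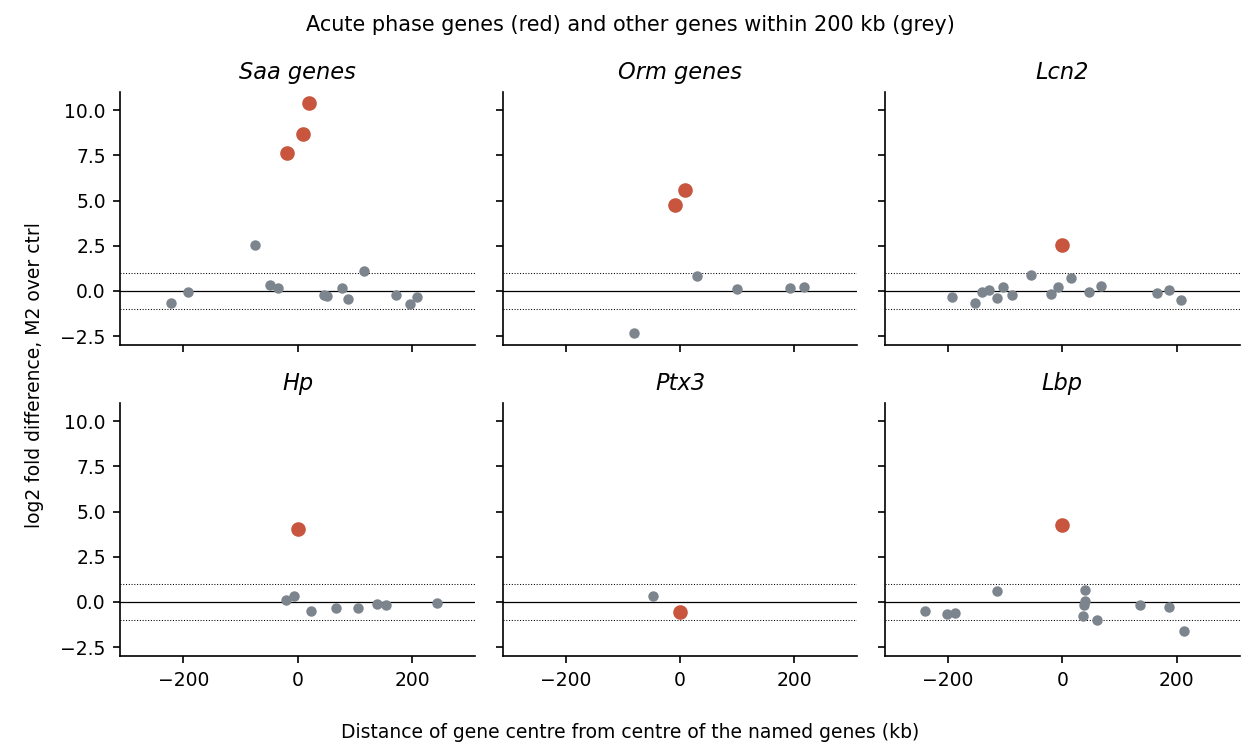
Log2 fold difference, M2 over ctrl, of the acute phase genes (red) and of other genes with at least 10 reads within 200 kb (grey), by distance in kb between gene centres and the centre of the named genes, with dotted lines at 2-fold. Around the serum amyloid genes the highest grey point is Tph1 at 2.52, and around Hp and Lcn2 no grey point passes 2-fold.

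Other proteins known to be higher in the acute phase were examined as a list of 28 genes, of which 13 had enough reads. This list and those after it were chosen with earlier results of these data known. Their counts are a description and support nothing further. Of these 13, 7 were at least 2-fold higher in M2 and 1 was lower, with a median log2 fold difference of 1.15, against 9.53% and 7.82% of all genes. Complement C3, the central protein of the complement cascade, had 666 reads in ctrl and 24213 in M2 (5.11). Complement factor B (Cfb) had 145 and 2419 reads (3.98), and the interleukin 1 receptor antagonist gene Il1rn 209 and 3060 (3.80). The metalloreductase gene Steap4 (2.88), the protease inhibitor gene Serpina3n (2.43), the ferroxidase ceruloplasmin (Cp, 2.42) and metallothionein Mt2 (1.15) were also higher. C4b, complement component 4, was lower, with 3038 and 964 reads (-1.72). The liver pentraxins Crp and Apcs, hepcidin (Hamp), the antitrypsin genes Serpina1a to Serpina1e and Mbl2 had 0 reads in both libraries, and the fibrinogen gene Fgg had 245 and 197.

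Among 8 genes whose proteins fall in plasma during the acute phase, 1 had enough reads. This was Trf, encoding the iron carrier transferrin, with 4038 reads in ctrl and 65294 in M2 (log2 fold difference 3.95, 3.90 to 3.99), so its direction in M2 was not the one that the name of this list gives. Albumin (Alb), Apoa2, Ahsg and Serpina6 had 0 reads in both libraries. Ttr had 8 and 0 reads, and Rbp4 0 and 7.

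The cytokines that induce acute phase genes were a list of 15 genes. Of the 10 with enough reads, 6 were at least 2-fold higher in M2 and 3 lower, against 9.53% and 7.82% of all genes. Their median log2 fold difference was 1.79. Il1a, encoding interleukin 1α, had 9 reads in ctrl and 920 in M2 (6.46, 5.68 to 7.74). Tnf had 133 and 1032 (2.88), and Lif, a cytokine of the interleukin 6 family, 1262 and 4633 (1.81). Il6 itself had 4 reads in ctrl and 17 in M2 (1.78, 0.40 to 4.05), a level near the limit of these libraries. Il1f6 (interleukin 36α) had 0 and 64 reads and Il1f9 (interleukin 36γ) 5 and 53. Il18 (153 and 18, -3.09), Il33 (2629 and 1356, -1.02) and Il1f8 (13 and 1) were lower. Osm, Il17a and Il22 had 0 reads in both libraries, and Il1b had 2 and 4.

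Of the receptors and adaptors of these cytokines, 16 had enough reads. Of these 16, 2 were at least 2-fold higher and 1 lower, against 9.53% and 7.82% of all genes, and their median was -0.22. Tnfrsf1b, encoding TNF receptor 2, had 19 and 468 reads (4.48), and Il1rap, the shared chain of interleukin 1 receptors, 1228 and 3142 (1.29). Il6ra, the interleukin 6 receptor, had 245 and 66 (-1.95), whereas its signalling partner Il6st had 6182 and 6342 (-0.03).

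Of the 14 transcription factor and feedback genes with enough reads, 1 was 2-fold higher and none was lower, and the median was 0.45. Over all genes, 9.53% were higher and 7.82% lower. Nfkbiz, encoding the IκBζ cofactor of NF-κB, had 2175 reads in ctrl and 5809 in M2 (1.35). Stat3 had 13071 and 20525 (0.58), Cebpb 3178 and 3623 (0.12) and Cebpd 771 and 1413 (0.80). Rel (0.95), Relb (0.87) and Nfkbia (0.88) were higher by less than 2-fold. Socs3, a feedback inhibitor of STAT3, had 3539 and 2265 (-0.71). The liver factor Hnf4a had 0 reads in both libraries. RNA levels say nothing of the activity of these factors.

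Receptors and partners of the 10 proteins had 14 genes with enough reads, with a median of -0.22. Of these, 3 were at least 2-fold higher and 3 lower, against 9.53% and 7.82% of all genes. Cd14, the lipopolysaccharide co-receptor to which Lbp delivers its ligand, had 803 reads in ctrl and 9114 in M2 (3.43, 3.33 to 3.54). Its partners Tlr4 (678 and 500, -0.51) and Ly96 (99 and 109, 0.07) were within 2-fold. Mmp9, the gelatinase that lipocalin 2 binds, had 330 and 1104 (1.67), and Cd163, a receptor for haptoglobin with haemoglobin, 2 and 30. Slc22a17, a lipocalin 2 receptor, had 347 and 195 (-0.90). Among the lower genes, Cd36, a scavenger receptor that binds serum amyloid A, had 16 and 0, and Lrp2 7 and 3.

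**Figure D4:**
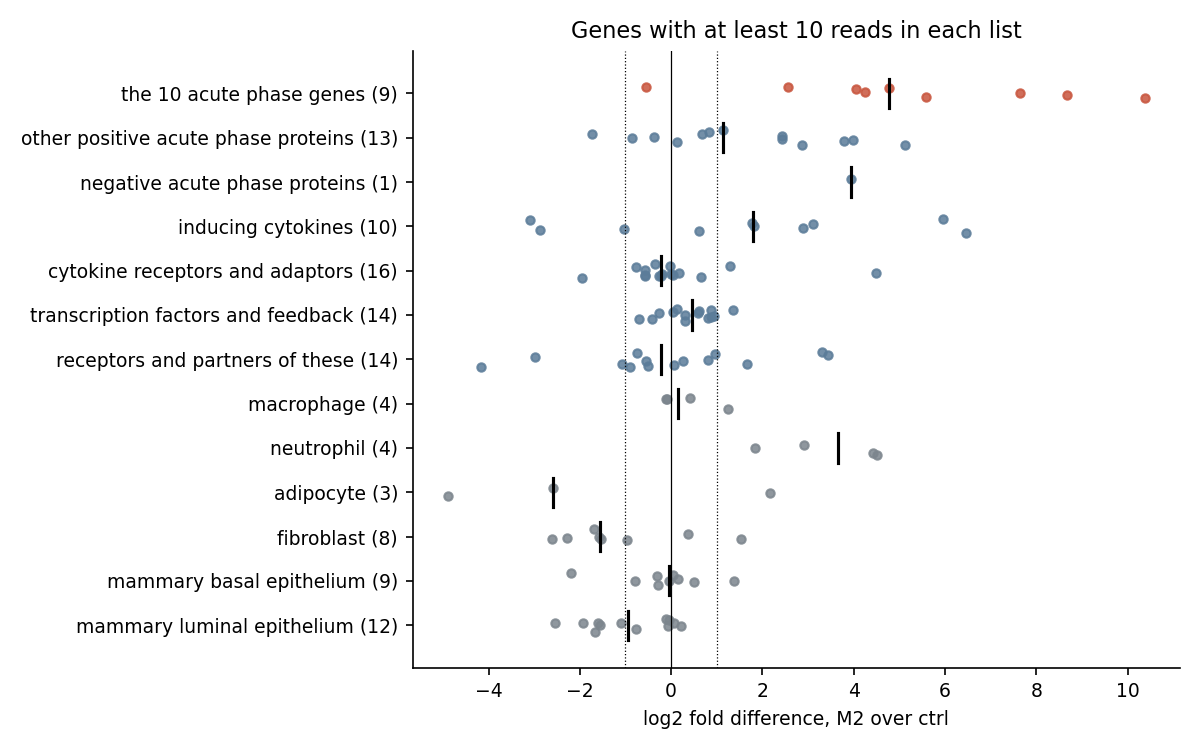
Log2 fold difference, M2 over ctrl, of each gene with at least 10 reads in the acute phase set (red), in related gene lists (blue) and in cell type marker lists (grey), with the number of genes in brackets, the median as a black bar and dotted lines at 2-fold. The median of the 9 acute phase genes with enough reads is 4.78, and that of the other positive acute phase proteins 1.15. Those of the receptor and transcription factor lists lie between -0.22 and 0.45. Higher than 1.15 are also the inducing cytokines (1.79), the neutrophil markers (3.66) and the negative acute phase list (3.95, 1 gene).

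Markers of other cells that can make these proteins were read in the same libraries, and in bulk RNA fewer cells of a type and less RNA per cell cannot be told apart. Of 13 macrophage markers, 5 (Adgre1, Ptprc, Tyrobp, Fcer1g and Chil3) had 0 reads in both libraries, and the sum was 1784 reads in ctrl and 2365 in M2. Most of this sum was Arg1, with 1507 and 2090 reads, while Cd68 had 170 and 165, Csf1r 94 and 92 and Lyz2 3 and 1. Of the 4 macrophage markers with enough reads 1 was at least 2-fold higher and 0 lower, against 9.53% and 7.82% of all genes. This was Itgam with 3 and 9 reads, whose interval in log2 runs from -0.49 to 4.04 and so includes no difference. Among the macrophage markers with too few reads, Mrc1 had 1 and 5, Ctss 5 and 2 and Retnla 1 and 1. Cd163, which is outside this list and was given above as a haptoglobin receptor, had 2 and 30. The 8 hepatocyte markers held 11 reads in ctrl and 2 in M2.

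The neutrophil list was higher in M2, in the same direction as most of the acute phase genes. Its 11 genes summed to 278 reads in ctrl and 2239 in M2, and all 4 with enough reads were at least 2-fold higher: Ltf, the lactoferrin gene that mammary epithelium also expresses (271 and 2133), S100a9 (1 and 47), S100a8 (1 and 44) and Camp (3 and 14). The defining genes Ly6g, Mpo, Elane, Csf3r and Retnlg had 0 reads in both libraries. Fibroblast markers went the other way, with 21528 reads in ctrl and 8208 in M2 over 8 genes, of which 5 were at least 2-fold lower and 1 higher. Adipocyte markers had 276 and 66 reads, of which Lep held 198 and 6. Of the 3 with enough reads 2 were at least 2-fold lower, and 1 was higher, Pparg with 9 and 46 reads (2.16). Of the luminal markers 6 of 12 were at least 2-fold lower and none higher. Over all genes, 7.82% were lower and 9.53% higher. The part of these other cells in the acute phase values was not tested.

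The genes whose fold difference was nearest to that of Lcn2, the acute phase gene with the most reads in M2, were sought among 8116 genes with at least 1000 reads. They were Pgk1-rs7 (log2 fold difference 2.55), Cyba (2.55), Nes (2.59), Adamts9 (2.51) and Dchs2 (2.61), against 2.56 for Lcn2. Likeness over 2 libraries is a likeness of 1 number, and nothing is drawn from it about shared function.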

How the data were processed

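Colonies and organoids grown from basal cells were sequenced as 1 ctrl and 1 M2 library, grouped by their labels. The authors deposited a table of unnormalized counts that covers 49492 genes, and the table's gene positions and lengths were used as listed. Per the labels a SMARTER mRNA kit was used. The labels and the study's methods name different RNA extraction reagents. Aligner, counter, annotation, read length and use of strand are not given in the sources used here. The submitters' processing notes name GRCm38 and mm10, and the positions of all 10 genes are those of GENCODE M21 on GRCm38.

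Libraries were scaled by TMM (edgeR 4.0.16 in R 4.3.3). Genes with at least 10 reads over both libraries entered (19233). Log2 fold differences used a pseudocount of 1, and called genes were those past 2-fold. The 95% Clopper-Pearson intervals (scipy 1.17.1) are those of the ratio without the pseudocount. No test was run, since there are no replicates and the genes were chosen by this contrast. The 10 genes and all lists were chosen with earlier results of these data known. Genes named besides the 10 come from those lists, from the serum amyloid and orosomucoid loci, and from the 5 genes nearest to Lcn2 in fold difference. Tph1, Ldha and Col27a1 are the genes past 2-fold at those loci. Arhgap40, near Lbp, was named after its values were seen. Counts of 1 to 3 were given as ratios, and counts of 0 were set against a floor of 3 reads, which is 0.109 CPM in ctrl and 0.104 in M2. Without molecular identifiers, intervals and floors cover counting error only. The interleukin 36 genes are listed under the older symbols Il1f6, Il1f8 and Il1f9, matched through RefSeq synonyms. Sequences were aligned with Biopython 1.88. Functions were tested on simulated data. Identity of the proteins was not analysed here. The values of 1 gene in the list of receptors and partners are not reported here, though it is counted in that list.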

Additional observations from a re-analysis of the deposited data

How the results depend on the processing

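No paired analysis was possible because ctrl and M2 are single libraries, and no count test was run for the same reason. Over other scalings (total counts, median of ratios, upper quartile) and pseudocounts of 0.5 and 3, the log2 fold difference stayed between 9.89 and 10.53 for Saa2, 8.44 and 8.74 for Saa1, 7.07 and 7.84 for Saa3, 4.43 and 4.89 for Orm1, 4.20 and 4.26 for Lbp, 3.99 and 4.05 for Hp, 2.50 and 2.56 for Lcn2, and -0.61 and -0.54 for Ptx3. With the ctrl count of Orm2 at the floor of 3 reads, its value stayed between 3.90 and 3.96. The summed log2 ratio of the 10 genes was 2.48 without Lcn2 (an alternative added after seeing the data), 2.47 with total counts and 2.36 with genes at 1 CPM in both libraries, against 2.53. That last filter removes genes that are low in ctrl. It left 3 acute phase genes at least 2-fold higher and 0 lower, and the median of those that passed it was 3.30. It also left 2 inducing cytokines higher and 1 lower, and 1 receptor or adaptor higher and 1 lower. For neutrophil markers these numbers were 1 and 0, and for macrophage and adipocyte markers 0 and 0. With a pseudocount of 3, 0 macrophage markers were at least 2-fold higher and 0 lower. Among all genes with a read, 2 macrophage markers were higher and 2 lower, and 2 negative acute phase genes were higher and 1 lower. Over all genes, the numbers higher and lower were 3174 and 4001 with a minimum of 1 read, and 797 and 583 with 1 CPM in both libraries. How many genes passed these filters was not recorded, so no share is given. Among the 19233 genes of the main filter, the numbers were 616 and 494 at 4-fold, and 938 and 679 by whole intervals. Depth limits Saa4, Orm2 and the ctrl values of Saa1, Saa2, Saa3 and Orm1. Protein identity was planned and was not run.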
